A study of Ambystoma mexicanum with 20 samples.

Results

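The RNAs described here are 159 of 32960 measured features of the axolotl oocyte that were concentrated in segment E, the vegetal end of the cell, over a low level in the animal segments. The axolotl (Ambystoma mexicanum) is a salamander, and its oocyte is the large immature egg cell. Per the labels, 4 oocytes were sliced in a cryostat along their animal-vegetal axis and divided into segments A (first animal), B, C, D and E (vegetal), 1 library per segment and oocyte, 20 in all. The strain, the age of the female, the oocyte stage and any treatment of the follicle cells are not given in the sources used here. Per the labels' protocols, the input of a library was fixed at 80 ng of total RNA, which was depleted of ribosomal RNA and read with its strand kept. A level is therefore a share of a segment's RNA, and more copies of an RNA in a segment cannot be told apart from fewer copies of the other RNAs there.

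The members were chosen by their measured values. The level of a feature was its counts-per-million (CPM), the deposited count relative to the library total. The share of a segment was its mean CPM over the 4 oocytes, as a percent of the sum of the 5 segment means. A member had a mean CPM of at least 5 over the 20 libraries, a share of E of at least 50% and under 80%, a share of D under 20%, and more CPM in E than in A in all 4 oocytes. Of the 20742 features with a mean CPM of at least 5, 585 had a share of E of at least 50%, and 498 of these were under 80%. The limit on D left 173, and the condition on E and A left 159. All 159 also passed the filter on low counts used for the tests.

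Amphibian oocytes lay down their animal and vegetal poles before fertilization. In the frog Xenopus, RNAs held at the vegetal cortex include those that encode VegT, a T-box transcription factor, and Vg1, a secreted factor of the TGF-beta family, which act in forming endoderm and mesoderm, and the frog's germ plasm gathers there too. Axolotl eggs lack germ plasm, and their germ cells are induced in the embryo. The feature identifiers carry no gene names, and 0 of 32960 matched the RefSeq gene table of the axolotl assembly UKY_AmexF1_1. Which members encode which proteins is therefore not given, the oocyte label could not be read against marker genes, and members are described by rank in mean CPM, with 4 identifiers printed.

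Library totals ran between 806943 counts (segment E of oocyte 2) and 15554319 counts (segment A of oocyte 4). Totals of segment E ranged from 806943 to 6651808, so the vegetal values of oocyte 2 were the least precise. A mean over 4 libraries with 3 counts in each was worth 0.595, 0.799, 0.599, 0.623 and 1.46 CPM over segments A to E, counting error only. Libraries of oocytes 1 and 4 separated from those of oocytes 2 and 3 along the main principal component of all features, which held 25.01% of the variance. The labels name no batch that matches this split. In the sample titles, oocytes 1 to 4 carry the numbers 10, 4, 5 and 9, so the split parts 9 and 10 from 4 and 5. What these numbers stand for is not given, and values are given per oocyte.

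Together the 159 RNAs made up 3.83% ± 0.845 of the counts in segment E, 0.964% ± 0.525 in D, and between 0.182% and 0.236% on average in the animal segments A, B and C (mean ± SD, n = 4 oocytes). In oocytes 1 to 4 they held 0.185%, 0.245%, 0.194% and 0.176% of the counts in A, and 0.169%, 0.1796%, 0.192% and 0.188% in B. In C they held 0.179%, 0.197%, 0.325% and 0.244%, and in D 0.449%, 0.651%, 1.62% and 1.13%. In E they held 2.77%, 3.53%, 4.49% and 4.53%. No library of E overlapped with any other, and no library of D overlapped with A, B or C. Within D the libraries of oocytes 3 and 4 were the highest, as they were in C and E. These sums carry the choice of the members and are a description.

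**Figure D1:**
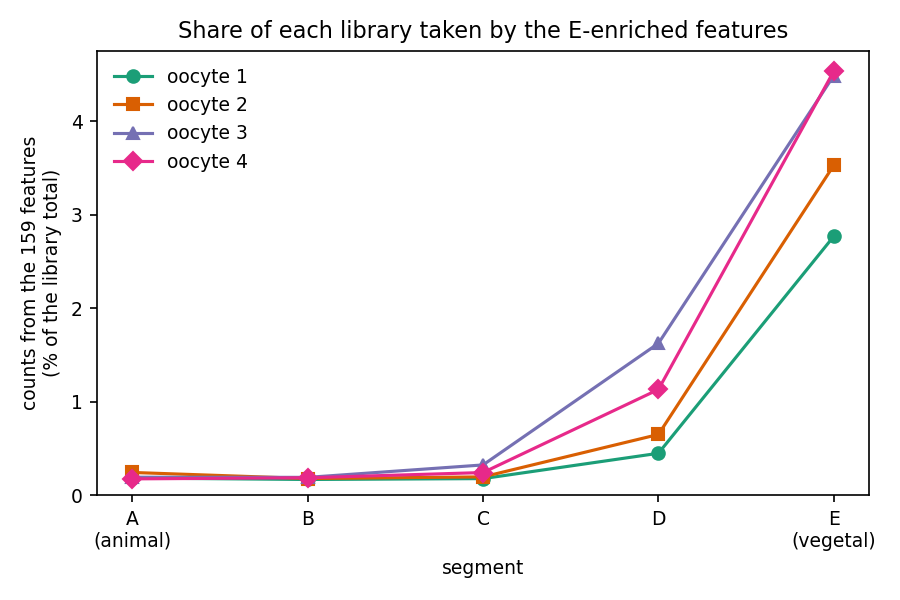
Percent of each library's counts that came from the 159 features (y axis) by segment from A (animal) to E (vegetal) (x axis), with 1 line per oocyte. The lines lie between 0.169% and 0.325% over A, B and C, with oocyte 3 highest in C, spread between 0.449% and 1.62% in D, and reach between 2.77% and 4.53% in E.

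On CPM, a low background held for A, B and C and not for D. Over segments A to E, the median shares of the members were 3.95%, 3.79%, 4.91%, 17.6% and 70.2%. Among all 20742 features with a mean CPM of at least 5, the medians were 21.1%, 20.97%, 20.96%, 19.6% and 16.9% over the same segments. Segment D was above each of A, B and C in the mean of 156 of the 159 members. The share of all features for which this held is not given, so the count is a description. In a stricter form, all 4 D libraries lay above the 12 of A, B and C for 68 members, against 3.1% of those 20742 features. The rule bounded the shares of E and D, so low shares of A, B and C partly follow from the choice of the members. On CPM, the median shares of A, B and C were thus all low, with C the highest. D stood between them and E. The authors' scaled values are the counts times a constant per library. Their library totals were similar within a segment and differed between segments, with the lowest at 2863130 in E of oocyte 1 and the highest at 12927971 in C of oocyte 2. On the scaled values, the members' medians were 5.07%, 11.6%, 15.49%, 15.49% and 50.4% over segments A to E, so C and D were alike. The medians of all features on that scale were 13.8%, 34.6%, 35.1%, 9.59% and 6.52%.

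Many members lay close to the limits that chose them. The share of D came within 2 percentage points of its limit of 20% in 70 members, and within 5 points in 128. Near the upper limit on E, 23 members were within 2 points of 80%. Near the lower limit, 3 were within 2 points of 50%. The highest shares of D inside were 19.99% and 19.94%, and the lowest outside were 20.05% and 20.06%. For E the last values inside and the next outside were 79.96% and 80.06% at the upper limit, and 50.3% and 48.9% at the lower. For mean CPM, the lowest members had 5.06 and 5.08, and the next features 4.93 and 4.87. The members are thus one stretch of a continuous range.

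**Figure D2:**
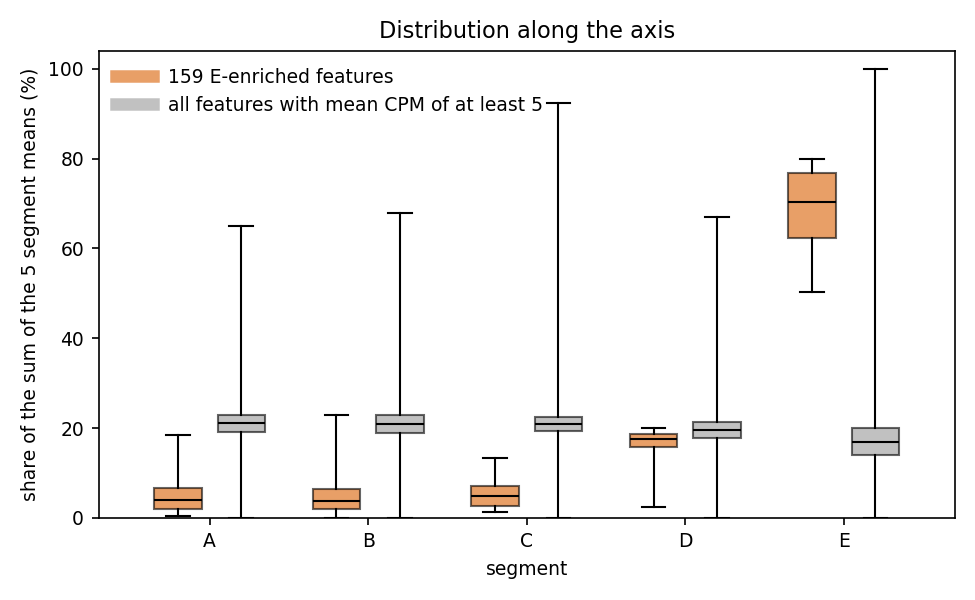
Share of the summed level in each segment (y axis, percent) by segment from A to E (x axis), for the 159 features and for all 20742 features with a mean CPM of at least 5. Boxes give the median and quartiles and whiskers the lowest and highest value. The members have medians of 3.95%, 3.79% and 4.91% in A, B and C, 17.6% in D and 70.2% in E, while the medians of all features lie between 16.9% and 21.1%.

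The members covered a wide range of abundance. Mean CPM over the 20 libraries ran between 5.06 and 873, with a median of 24.05. In E alone the means ran between 15.3 and 3042 CPM, with a median of 87.4. Few RNAs made up most of the total: the 5 most abundant held 26.5% of the members' CPM in E, and the 20 most abundant held 57.6%. Over A, B and C the median member had 4.41 CPM. The median ratio of E to the mean of A, B and C was 15.5, with quartiles of 9.47 and 35.2, and the lowest was 4.61. Relative to D, the median ratio of E was 3.96, with quartiles of 3.48 and 4.60.

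AMEXTC_0340000218103, the most abundant member, showed an animal background that was itself well measured. Its CPM in oocytes 1 to 4 was 130.3, 234, 195 and 115 in A, 128, 173, 174 and 129 in B, and 124, 173, 305 and 184 in C. In D it had 311, 631, 1480.2 and 799 CPM, and in E 1717, 2953, 4083 and 3415. Every E library was above every other library, and every D library was above the 12 animal ones. In each of D and E, oocyte 1 was the lowest and oocyte 3 the highest. Its mean in E was 3042 ± 998 CPM (SD, n = 4), and E held 69.7% of the summed level.

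AMEXTC_0340000008542 ranked next and had a lower background for a similar level in E. It had 47.7, 100.06, 50.1 and 46.2 CPM in A, 45.8, 44.4, 45.2 and 45.6 in B, and 47.7, 51.9, 47.1 and 79.9 in C. In D the values were 241, 367, 1199 and 542 CPM, and in E 1237, 2593, 3164 and 2406. The B libraries lay close together, while 1 library of A and 1 of C stood above the rest of their segments. Segment E held 75.8% of its summed level, and the E, D and animal libraries did not overlap.

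The members at ranks 7 and 8 were alike in mean CPM and differed in their background. The feature at rank 7 had 10.997, 20.1, 5.76 and 8.23 CPM in A, 7.37, 7.01, 7.42 and 9.54 in B, and 9.49, 6.46, 60.6 and 31.1 in C. Its D libraries had 109.8, 186, 529.8 and 382 CPM, and its E libraries 963, 1143, 1504 and 1446. This member was low in all animal libraries other than C of oocytes 3 and 4. The feature at rank 8 had 115, 147, 113 and 94.3 CPM in A, 106, 106, 121 and 134 in B, and 90.8, 109.9, 144 and 110.2 in C. It reached 109, 239, 500.1 and 297 CPM in D, and 591, 1026, 1373 and 910.0 in E. For this one, D of oocyte 1 lay inside the range of the animal libraries.

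**Figure D3:**
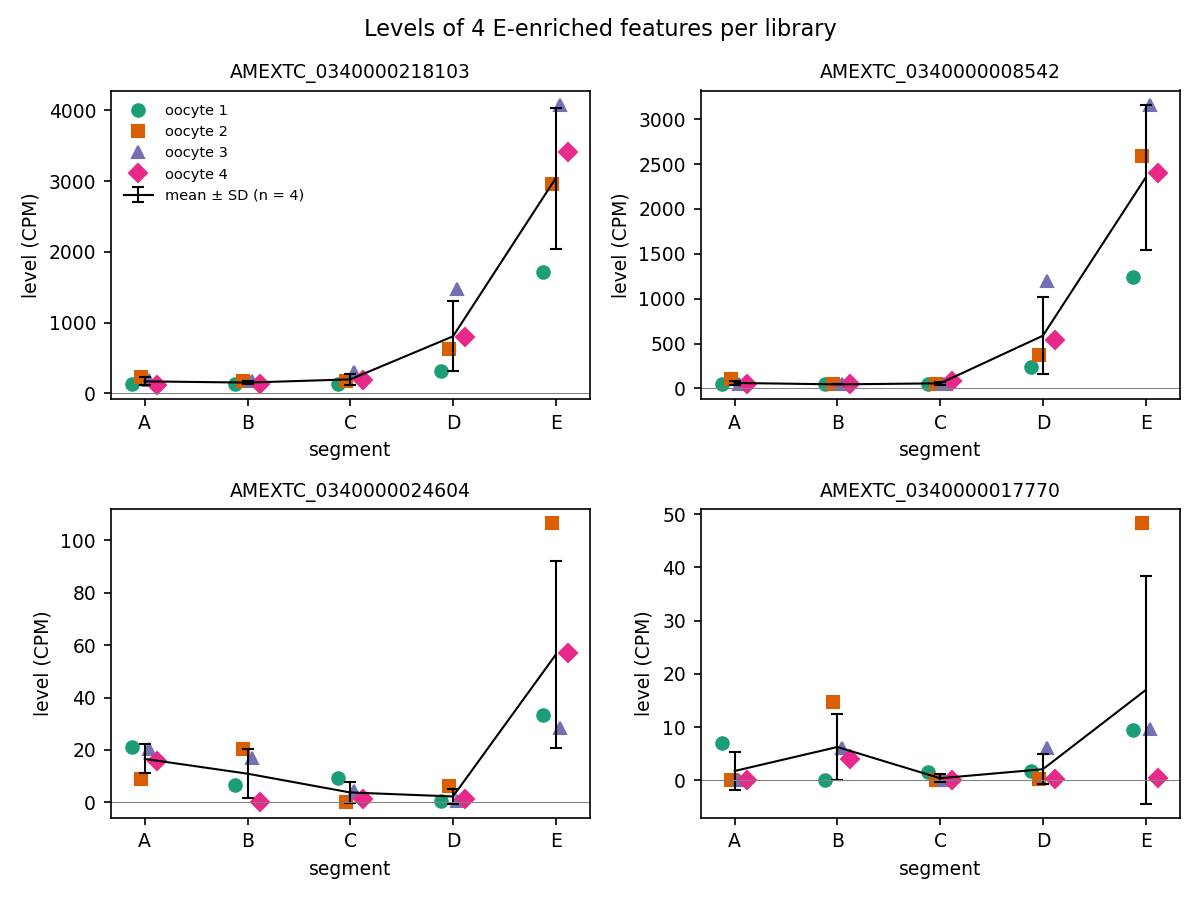
CPM per library (y axis) by segment from A to E (x axis) for the 4 features given by identifier, 1 panel each, with a point per oocyte and the mean ± SD (n = 4). The 2 most abundant features are higher in D than in C and higher in E than in D in every oocyte, and the 2 features with the lowest fitted value of C against A have scattered animal values.

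Sorted by their combined share of A, B and C, with limits chosen after the values were seen, the members formed a range in how much of their level lay outside the vegetal segments. The combined share was under 5% in 25 members, between 5% and 15% in 62, and at least 15% in 72. Over these classes the median level in the animal segments was 3.02, 3.78 and 5.48 CPM, and the median level in E was 171, 89.4 and 46.3 CPM. In these medians a larger background share came with a lower level in E more than with a higher animal level. The median ratio of E to the animal mean was 65.4, 26.6 and 8.87, and that of D to the animal mean was 15.04, 5.19 and 2.42. The ratio of E to D was close in all classes, at 4.28, 4.41 and 3.44. The classes were cut on the share of A, B and C, so the fall in the ratios to the animal mean largely follows from the sorting. The rule also bounded the shares of E and D, so all values by class are descriptions.

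Detection set a limit on the animal values of the less abundant members. All 20 libraries held at least 1 count for 114 of the 159 members. All 159 members were detected in every E library, as the rule requires. The lowest number detected was 132, in segment B of oocyte 4. The mean level was under that of 3 counts per library in A for 5 members, in B for 14 and in C for 3. For the members at ranks 69 and 137, all B libraries had 0 counts, below the 0.799 CPM that 3 counts in each B library were worth. Split by abundance into 3 groups of 53, the median share of E was 73.1%, 71.1% and 68.2%, and the combined share of A, B and C was 9.39%, 14.6% and 16.7%. Across the members, Spearman's rho between mean CPM and the share of E was 0.15, a description of features that share all 20 libraries.

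The rule set E above A and bounded the shares of E and D. The outcomes of E against A and of E against D were therefore largely fixed by the choice of the members. The rule did not set D against C, but it capped the share of D and held C low through the sum of the 5 means. The counts and tests of these contrasts are given as descriptions. Segment D was above C in all 4 oocytes for 135 of 159 members, against 11.3% of all features with a mean CPM of at least 5. Segment E was above D in all 4 oocytes for 156, against 7.79%. All 4 E libraries were above the other 16 for 125 members, against 3.52%, and all 4 D libraries were above the 12 of A, B and C for 68, against 3.1%. The median log2 fold change was 1.83 for D against C, 2.14 for E against D and 4.35 for E against A.

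In edgeR's quasi-likelihood test with Benjamini-Hochberg adjustment over all 32302 features tested, 151 members passed the threshold of 0.05 for E against A, all higher in E, where 8.1% of all features did so. For E against D, 99 members passed, all higher in E, against 1.99% of all features. For D against C, 81 passed, all higher in D, against 2.42%. Both steps passed in 65 members and neither did in 44. The shares of all features for both and for neither are not given, so these counts are a description. The p-values rest on the spread between libraries of the same segment, pooled over the segments, in these 4 oocytes. The model had no oocyte term, so segments of the same oocyte were treated as independent. Leaving out 1 oocyte left between 17 and 70 members for D against C, with 0.72% to 2.49% of all features passing in either direction, and between 22 and 92 for E against D, with 0.334% to 1.86%. The fewest D against C calls came without oocyte 4 and the fewest E against D calls without oocyte 2.

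These directions rest on equal library totals or on scaling factors close to them. With the authors' scaling constants, the median of all features moved to -1.87 for D against C, -0.54 for E against D and -1.09 for E against A on the log2 scale. The members' medians were then -0.03, 1.64 and 3.33. Relative to all features, the members were higher by 1.85 in D against C and by 4.42 in E against A, close to the 1.83 and 4.41 found with TMM factors. With 1 constant per library all features shift nearly alike, so this closeness follows from the scaling and was no test. For D against C, 36 members then passed, 19 higher in D, against 0.344% of all features, and 17 higher in C, against 77.1%. On the authors' scaled values, the median share of E was 50.4% and 80 of the 159 had at least 50% there.

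By the measures given here, departures from the common pattern were few. Stricter measures held for fewer members: D was above C in all 4 oocytes for 135 of 159. All 4 E libraries were above the other 16 for 125. In 3 members, at ranks 90, 139 and 155, the mean of D was not above those of A, B and C, and 5 members had a share of D under 10%. E was not above D in 1 oocyte for the members at ranks 129, 137 and 156. AMEXTC_0340000024604, at rank 90, had 21.0, 9.03, 20.5 and 15.8 CPM in A, 6.45, 20.3, 17.0 and 0 in B, and 9.39, 0, 4.38 and 1.35 in C. It had 0.555, 6.41, 0.706 and 1.32 CPM in D, and 33.2, 107, 28.5 and 57.1 in E. The A and E libraries of this feature were thus both above D, and its lowest mean was in D.

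The animal segments were also compared with each other. The rule held B and C low through the sum of the 5 means, so their levels are not independent of it, but it set neither against the other, and it set A only below E. In edgeR's quasi-likelihood test, 0 of 159 members and 0.0% of all features passed the adjusted threshold for C against B, and the same held for C against A and for B against A. Without adjustment, p was under 0.05 for C against B in 17 members, all higher in C, against 0.991% of all features higher in C. DESeq2 called 0 members for C against B and 0 for C against A, where 4 of all features passed in each. For B against A it called 1 member, where 9 of all features passed. In edgeR's C against A, 6 members were under 0.05 without adjustment, 3 in each direction, against 1.59% of all features. That count was 22 without oocyte 2, against 1.71%, and 12 with oocyte as a block, against 3.64%. For B against A there were 3, all higher in A, against 0.536%.

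Values in C lay slightly above those in B for most members, by amounts that did not pass the test for any of them. The fitted log2 fold change of C against B was positive in 134 of 159 members, with a median of 0.41 and quartiles of 0.11 and 0.85. Over all features tested, it was positive in 51.6%, with a median of 0.01. With the 15 members under the counting floor in B or C left out, the median was 0.38, and 120 of 144 were positive. In all 4 oocytes C was above B for 40 of 159 members, against 7.88% of all features with a mean CPM of at least 5, and B was above C for 4, against 7.8%.

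The size of this difference varied between oocytes, and oocyte 3 contributed the most. The members' summed percent of counts in C was 1.055, 1.10, 1.69 and 1.30 times that in B in oocytes 1 to 4. Of the 159 members, 97, 105, 133 and 102 were higher in C than in B in those oocytes. These include members with 0 counts in B. Among members with counts in both segments, 94 of 152, 103 of 145, 128 of 146 and 78 of 130 were higher in C. Without oocyte 3 the median log2 fold change of C against B was 0.24, and 4 members were under 0.05 without adjustment, against 17 with all 4 oocytes. Without oocytes 1, 2 and 4 in turn, 25, 18 and 12 members were under 0.05 without adjustment. The share of all features under 0.05 in these fits is not given, so the counts are a description. In oocytes 1 and 4 alone the median was 0.29, and in oocytes 2 and 3 alone it was 0.50. The pairs were formed after the data were seen. All members share the same libraries and are not replicates, so these medians are a description.

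By background class, the median log2 fold change of C against B was 1.53 in the members with under 5% in A, B and C, 0.52 in those with 5% to 15%, and 0.17 in the rest. All 25 members of the lowest class were positive. Of these, 18 were above the floor in B and C, with a median of 1.30. The most abundant member had 197 ± 76.9 CPM in C against 151 ± 25.6 in B (SD, n = 4), a log2 fold change of 0.38 (SE 0.41, edgeR adjusted p = 1).

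The differences of B and C from A were smaller. The median for C against A was 0.24, and C was above A in all 4 oocytes for 14 members, 8.81%, near the 8.11% of all features. The oocytes differed in direction: 80, 48, 128 and 123 members were higher in C than in A in oocytes 1 to 4, and the summed percent of counts in C was 0.965, 0.806, 1.68 and 1.38 times that in A. Without oocyte 3 the median was 0.06. For B against A the median was -0.14, and A was above B in all 4 oocytes for 23 members, against 7.25% of all features. Without oocyte 2 the median of B against A was 0.00. With the authors' constants the median of all features was 1.32 for B against A and 1.35 for C against A. The members' medians were then 1.18 and 1.60, so that relative to all features they moved by -0.14 and 0.25. Such relative values are nearly fixed under 1 constant per library. On that scale 74 members passed for B against A, 73 of them higher in B, against 66.4% of all features. For C against A 121 passed, against 67.8%.

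The 2 members with the lowest fitted value of C against A had scattered counts. AMEXTC_0340000024604, described above, averaged 3.78 ± 4.16 CPM in C and 16.6 ± 5.56 in A (SD, n = 4), a log2 fold change of -2.08 (SE 0.98, edgeR adjusted p = 1). AMEXTC_0340000017770, at rank 155, had 6.998, 0, 0 and 0 CPM in A, 0.115, 14.7, 6.07 and 4.09 in B, and 1.55, 0, 0 and 0 in C. In D it had 1.66, 0.279, 6.12 and 0.264 CPM, and in E 9.47, 48.3, 9.63 and 0.362. Its E values stood on 63, 39, 26 and 2 counts, and the E and B libraries overlapped. For AMEXTC_0340000008542 the log2 fold change of C against A was -0.11 (SE 0.42), and with the authors' constants it was 1.24, against a median of 1.35 for all features on that scale.

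Whether the pattern held in libraries that had not chosen the features was read by applying the rule to 3 oocytes and reading the other one. The 3 oocytes chose 140, 136, 235 and 198 features when oocytes 1, 2, 3 and 4 were left out. The median share of E in the left-out oocyte was 71.3%, 67.3%, 57.4% and 70.1%, against 17.6%, 16.2%, 16.6% and 16.6% for all features there. A share of E of at least 50% was held by 120 of 140 features in oocyte 1, 115 of 135 with counts in oocyte 2, 181 of 235 in oocyte 3 and 176 of 198 in oocyte 4. Between 2.68% and 3.84% of all features met that bound. The concentration in E was thus present in each left-out oocyte.

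The limit on D did not carry over in the same way. In the left-out oocyte the median share of D was 11.997%, 13.4%, 26.5% and 17.7%. It was under 20% in 125, 107, 39 and 117 features in oocytes 1 to 4. Over all 20742 features with a mean CPM of at least 5, the median share of D on the means of the oocytes was 19.6%. A share of D under 20% was thus common among all features. All limits on shares were met by 73, 71, 28 and 80 of the chosen features. How many of all features met these limits in each oocyte is not given, so the counts are a description. Oocyte 3 had the highest median share of D here, though the chosen features differed between the left-out oocytes.

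**Figure D4:**
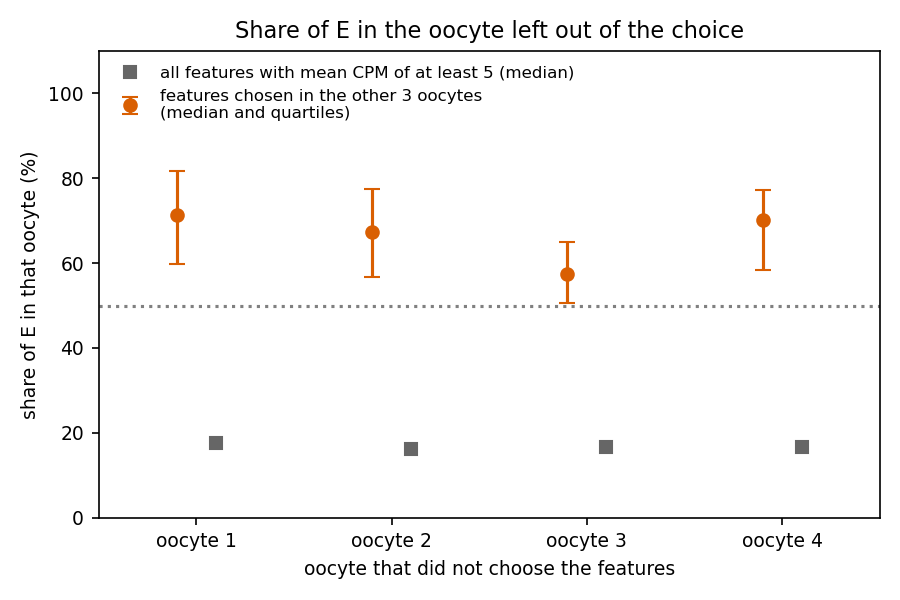
Share of E (y axis, percent of the summed level) in the oocyte left out of the choice (x axis, oocytes 1 to 4), as the median and quartiles of the features chosen in the other 3, with the median of all features in that oocyte. The medians of the chosen features lie between 57.4% and 71.3%, with oocyte 3 the lowest, and those of all features between 16.2% and 17.6%.

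Read per oocyte, the 159 members had median shares of D of 12.02%, 13.0%, 23.0% and 16.4% in oocytes 1 to 4, and median shares of E of 71.6%, 71.2%, 65.5% and 72.8%. The share of D was under 20% in 48 members in oocyte 3, against 153, 144 and 121 in oocytes 1, 2 and 4. The median ratio of D to the animal mean was 2.43, 2.58, 5.83 and 4.49, and that of E to the animal mean was 12.8, 14.7, 17.2 and 23.4. Over all features these ratios lay between 0.871 and 0.958 for D and between 0.762 and 0.848 for E. Oocytes 3 and 4 were thus higher in both segments, with oocyte 3 highest in D and oocyte 4 in E. The distance from the pole at which each oocyte was divided is not given, and its part in this was not tested.

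**Figure D5:**
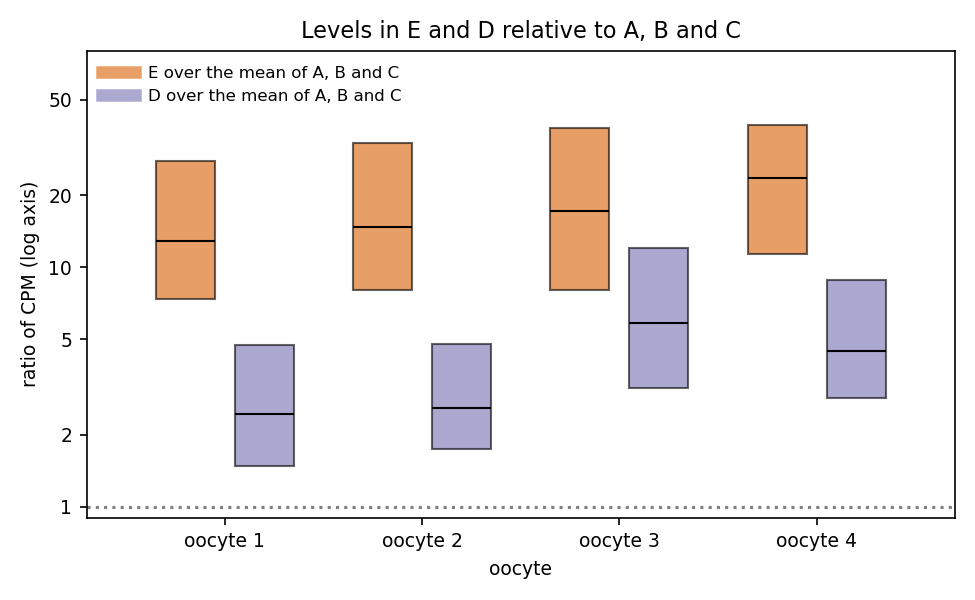
Ratio of E and of D to the mean of A, B and C within each oocyte (y axis, log scale) for oocytes 1 to 4 (x axis), as the median and quartiles over the members. The medians of E lie between 12.8 in oocyte 1 and 23.4 in oocyte 4, and those of D between 2.43 in oocyte 1 and 5.83 in oocyte 3.

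Levels of the members also differed between oocytes, at about the rate of all features. In edgeR's F-test of the oocyte terms, with segment in the model, 51 of 159 members passed the adjusted threshold, 32.1%, against 26.2% of all features. Among the 51, the mean level over the 5 segments was highest in oocyte 3 for 36 and in oocyte 4 for 15. Among all 8455 features that passed, 18.4% were highest in oocyte 3 and 25.1% in oocyte 4. The lowest oocyte was 1 for 35 of the 51, 68.6%, against 18.4% of all features that passed. It was 2 for 15, 29.4%, near the 29.5% of all features that passed. AMEXTC_0340000218103 passed this test (adjusted p = 0.0103), and over its alternatives the adjusted p ran between 0.0045 and 0.110, above the threshold without oocyte 1 and without oocyte 3. Without oocytes 1, 3 and 4 in turn, 18.2%, 17.0% and 17.6% of the members passed (29, 27 and 28), against 21.7%, 19.9% and 17.3% of all features.

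The excess in E over the other segments was tested for a difference between oocytes with an interaction term. In edgeR's F-test 0 of 159 members passed the adjusted threshold, against 1.34% of all features. DESeq2 was not run for this test. Each oocyte has 1 library of E, so an oocyte and its library cannot be told apart. A p above the threshold does not show that the excess was equal. On simulated data, recovery of a change was not required of this test.

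Sets of features just outside the rule were described beside the members, with no test of the differences. The 82 features with a share of E of at least 80% and the other terms unchanged had a median animal level of 0.908 CPM, against 4.41 CPM for the members, and a median share of D of 10.7%. The 300 most abundant of 311 features with a share of D of at least 20% had a median share of D of 23.7%, a median share of E of 58.3%, a median animal level of 7.27 CPM, and animal shares of 4.62%, 4.27% and 6.68%. The 43 features with a share of E of 40% to 50% had animal shares of 12.9%, 12.4% and 13.2%. C was above B in all 4 oocytes for 25.2% of the members, 24.4% of the features over 80%, 47.7% of those over 20% in D and 6.98% of those under 50% in E. Of these sets, the features left out by the limit on D had the largest part higher in C than in B.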

How the data were processed

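The authors deposited raw counts for 32960 features in 20 libraries, and a signal table in which each value is that count times 1 constant per library: whole reads were recovered for 100% of values within 0.01 read, and 100% equalled the deposited count. Per the submitters' processing notes, the tools include Trimmomatic, STAR 2.5.3a, kallisto and DESeq2, with no role stated. The build, annotation and origin of the constants are not given in the sources used here. All 20 columns were mapped by title, with 0 left unmapped.

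The members and lists were chosen with earlier results of these data known. Shares used CPM on library totals. Counts were tested in R 4.3.3 with edgeR 4.0.16 (TMM factors, filterByExpr at 10 counts and a total of 15, robust quasi-likelihood F-tests, Benjamini-Hochberg adjustment over 32302 features, threshold 0.05). The filter left out 658 features with 0.058% of counts. The model held segment means (15 residual degrees of freedom), with oocyte terms for the oocyte test (12), and with 3 terms for E by oocyte for the interaction (9). Before use, the fit was tested on simulated data. Recovery of large changes was required for a change in C and for a change in a whole oocyte. It was not required for a change in E of an oocyte, the case of the interaction. Python 3.11.15 with numpy 2.4.6 and pandas 2.3.3 gave summaries. Alternatives were DESeq2 1.42.0, other scalings and filters, thinning, and leaving out each oocyte. The pairs of oocytes and the authors' constants were added after seeing the data.

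The 2 members highest in mean CPM and the 2 with the lowest fitted C against A are given by identifier. Segments share oocytes: deviations from segment means correlated within an oocyte (median r = 0.311, lowest 0.168, 40 pairs), and the labels give the same oocyte. Pairs of different oocyte and segment had a median r of -0.264 but reached 0.448 (120 pairs), so the 2 ranges overlapped. Library totals are in the text, and intervals of counts cover counting error only.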

Additional observations from a re-analysis of the deposited data

Results flagged for a closer look

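Among the CPM of the 4 identified features the members' summed percent of counts and the median share of E in the left-out oocytes, 26 groups of 4 libraries were checked for a library far from the other 3. A library was far when its gap to the nearest other, over the whole range, exceeded the 95% critical value of Dixon for 4 samples. For normally distributed values, chance gives this in about 1 in 20 groups, or 1.3 of 26. There were 5 such groups. That number cannot be set against 1.3. A group with 0 counts in the other 3 libraries passes by arithmetic, and the features lowest in C against A were picked for extreme values. AMEXTC_0340000008542 had 100.06 CPM in segment A of oocyte 2, against 46.2 to 50.1 in the other A libraries. It also had 79.9 CPM in segment C of oocyte 4, against 47.1 to 51.9. AMEXTC_0340000024604 had 6.41 CPM in segment D of oocyte 2, against 0.555 to 1.32. AMEXTC_0340000017770 had 6.998 CPM in segment A and 1.55 CPM in segment C of oocyte 1, with 0 counts in the other 3 libraries of each. None of the 5 groups was in segment B or E.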

How the results depend on the processing

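The number of features meeting the rule was 261 with a mean CPM of at least 1, 206 with TMM factors (134 of them members), 114 on the authors' scaled values (60 members), and 136 to 235 over the oocytes left out. DESeq2 called 1 member for B against A, where 9 of all features passed. The authors' constants gave 74 members for B against A, 121 for C against A and 36 for D against C, and turned C against A of AMEXTC_0340000008542 to 1.24 on the log2 scale, where the median of all features moved to 1.35. Leaving out 1 oocyte gave 17 to 70 members for D against C (70 without oocyte 1, 35 without 2, 34 without 3, 17 without 4), 22 to 92 for E against D (53, 22, 92 and 33 in the same order) and 27 to 46 between oocytes (46 without oocyte 2). These fits have fewer libraries. The other causes were not tested. Of the values that answer a comparison, 117 alternatives stayed within their bounds and 14 did not. For a count, the bounds concerned its size only. The 114 features on the authors' scaled values thus stayed within them with 60 members. The 235 features without oocyte 3 did so with 114 members. Alternatives with 0 members were also within bounds where the main count was 0, as for C against B. The tally therefore does not measure how far the same features were kept.

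With oocyte as a replicate block, 106 members passed for D against C, 137 for E against D, 153 for E against A, against 6.89%, 6.32% and 22.5% of all features, and 0 for C against B, C against A and B against A. The pairing moved no adjusted count of members by over 1.5 times, but all features called went to 2224 with the block, against 1070 without it, for D against C, and to 2041, against 859, for E against D. Members under 0.05 unadjusted for C against A went to 12 with the block, against 6. For C against B they went to 25, against 17, with no share of all features given. The interaction gave 0 members in the settings run. Thinning to 806943 counts tested 146 of the 159 members. Depth limits the animal values most: 1 count in the smallest B library, of oocyte 4, was worth 0.681 CPM.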

Other observations

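Some members had 0 counts in 1 or more libraries where the mean CPM of the other 3 oocytes predicted at least 10 counts. This held for 22 of 159 members, 13.8%, in 46 libraries counted per member, against 13.9% of the 20742 features with a mean CPM of at least 5. Such zeros fell in A for 12 members, in B for 10, in C for 14, in D for 4 and in E for 0. The rule excludes a 0 in E, since E had to be above A in each oocyte. The share of members was thus near that of all features, for which zeros in E also count.

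The spread of E between oocytes was also near that of all features. The coefficient of variation of the 4 E libraries had a median of 32.8% over the members, with quartiles of 24.3% and 43.6%, against 29.1% for all features, with quartiles of 17.4% and 50.3%.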
